A study of Mus musculus with 9 samples.

Results

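The genes described here encode the machinery of the endoplasmic reticulum (ER) that takes in, folds, glycosylates, checks and exports secreted and membrane proteins, with the sensors of the unfolded protein response. The list has 39 genes, and 38 of them have a named probe set on the Affymetrix arrays used (Sec61g does not), of 12393 genes measured. Each gene was read from 1 probe set, the one with the highest mean over the 9 arrays, so the groups' differences had no part in the choice. All values are log2 intensities, a difference of 1 is a doubling, and a level of one gene cannot be set against that of another, since probe sets differ in how brightly they hybridise.

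The study asked how loss of the acetyltransferases CBP and p300, paralogous transcriptional co-activators, changes the regulatory T (Treg) cells of mice. Total RNA came from magnetically separated CD4+CD25+ cells of C57Bl/6 mice in 3 groups of 3 arrays: fl-CBP/Foxp3cre (CBP-deleted), fl-p300/Foxp3cre (p300-deleted) and the Foxp3cre control, also described as wild type. All 3 groups carry the Foxp3-driven Cre by their labels, so a floxed gene is deleted only in cells in which the Foxp3 locus drives Cre, while selection on CD4 and CD25 can also bring in cells that do not. The replicates are described as independent samples, but whether each came from its own mouse is not given, and p-values measure only the spread between these samples. The deletions are taken from the labels.

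Proteins enter the ER through the Sec61 channel, lose their signal peptide, receive N-linked sugars, and are folded by chaperones and disulfide isomerases. When unfolded proteins build up, the sensors IRE1 (Ern1), ATF6 and PERK raise the capacity to fold and to degrade them; IRE1 does so by splicing the mRNA of the transcription factor XBP1. Antibody-secreting plasma cells, which enlarge their ER, are the lymphocytes best known for high Xbp1 and ER chaperone expression.

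Values of the labels' check genes and of the arrays bear on all that follows. Foxp3, the lineage factor of Treg cells, read 2.73, 2.91 and 2.97 on the CBP-deleted arrays and 2.58, 3.08 and 3.19 on the p300-deleted arrays, against 9.75, 9.58 and 9.48 on the control arrays. Both deleted groups thus lay within the range of 27 probe sets for bacterial control genes (1.89 to 4.24), so how far they lay below the controls has only a lower bound. The labels give all 3 groups Foxp3cre and the same cell type, and what made Foxp3 read so differently was not tested. A difference in the Foxp3 allele or in the cells cannot be told apart from the deletions in any comparison with controls. Of 12 Treg markers, Foxp3 and Il2ra among them, CBP deletion went with 3 called higher and 3 called lower than in controls (50% called). With p300 deletion 2 were called higher and 1 lower (25% called). Among all genes the shares called, at an adjusted p under 0.05 in limma, were 4.93% and 4.06%. Il2ra, which encodes CD25, averaged 9.09 ± 0.14, 9.29 ± 0.06 and 9.05 ± 0.25 (SD, n = 3 each) in CBP-deleted, p300-deleted and control cells, with no difference past the test in limma. Crebbp, the gene of CBP, averaged 7.20 ± 0.13 in CBP-deleted cells, against 7.53 ± 0.16 in controls (difference -0.33, adjusted p = 0.123), and where its probe set lies relative to the deleted part is not given in the sources used here. No value is given for the gene of p300, which was not analysed here. Array medians ran from 5.49 to 5.59, and arrays of a group correlated at 0.990 to 0.997.

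The ER genes had positive median differences from controls in both deleted groups. The 2 deleted groups differed from each other in Xbp1 and Herpud1, a share of the members near that of all genes. In p300-deleted cells 5 of 38 members rose (Xbp1, Creld2, Pdia4, Ssr3 and Sel1l) and none fell, at an adjusted p under 0.05 over all genes, where 4.06% of all genes passed in either direction (2.02% higher and 2.04% lower). In CBP-deleted cells 3 members rose (Pdia3, Ppib and Ssr3) and none fell, where 4.93% of all genes passed (2.14% higher and 2.79% lower). Directly compared, 2 members were lower in CBP-deleted than in p300-deleted cells (Xbp1 and Herpud1) and none was higher, where 5.20% of all genes passed (3.20% higher and 2.01% lower). The share of the members, 5.26%, was thus near that of all genes. These counts are small and moved with the samples used: leaving out 1 array at a time gave 1 to 8 members for p300-deleted cells, 0 to 8 for CBP-deleted cells and 2 to 4 for the direct comparison.

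Taken over all 38 members, the median log2 difference from controls was 0.23 in p300-deleted cells, with 30 members positive and 8 negative, against -0.02 over all genes. It was 0.14 in CBP-deleted cells, again with 30 positive and 8 negative, against -0.03 over all genes, and 0.08 without CBP-deleted replicate 3. Both use the same 3 control arrays, so they are not independent of each other. Between CBP-deleted and p300-deleted cells the median difference was -0.05, with 15 positive and 23 negative, against -0.02 over all genes, and 0.00 without p300-deleted replicate 1. All 3 p300-deleted arrays lay above all 3 control arrays for 14 members and below them for 2, where 8.76% and 11.5% of all genes did so (20.2% in all). For CBP-deleted cells the numbers were 11 above and 4 below, where 10.0% and 14.5% of all genes did so (24.4% in all). Set against p300-deleted arrays, CBP-deleted arrays lay wholly above for 4 members and wholly below for 11, where 15.7% and 14.4% of all genes did so (30.1% in all).

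Per array, the mean deviation of the 38 members from each gene's own mean was -0.01, -0.03 and 0.07 in CBP-deleted cells and 0.24, 0.04 and 0.05 in p300-deleted cells, against -0.13, -0.13 and -0.10 in controls. The p300-deleted replicate 1 stood apart from the other 2 of its group: it was the highest of the 3 for 28 of 38 members. Without it the median difference of p300-deleted cells from controls was 0.14. In RNA of a mixed population, more cells of a type and more RNA of these genes per cell cannot be told apart.

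**Figure D1:**
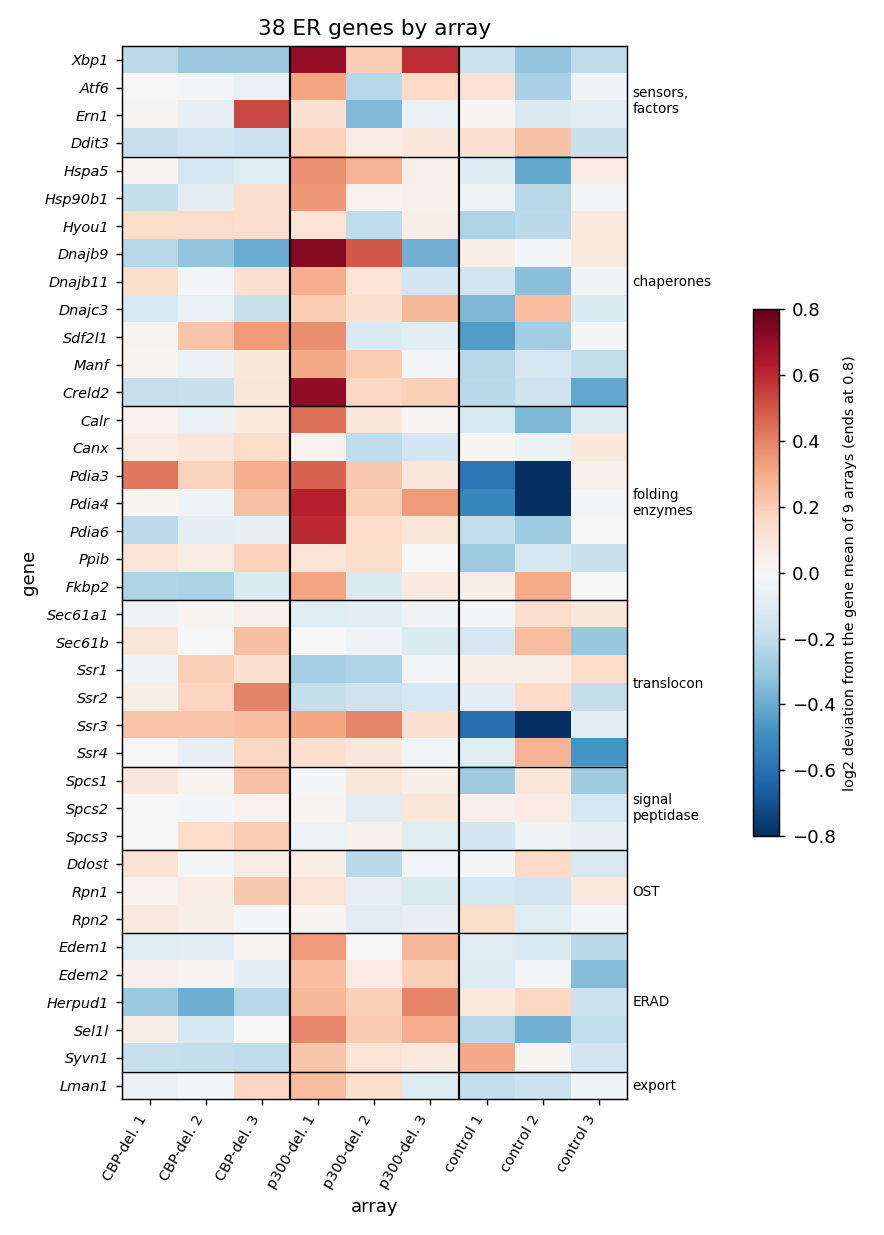
Deviation (log2) of each of the 38 ER genes, 1 per line and grouped by role, from its own mean over the 9 arrays, with 1 column per array: CBP-deleted, then p300-deleted, then control. The p300-deleted replicate 1 is the highest of its group for 28 of 38 genes, and Xbp1 is high on all 3 p300-deleted arrays.

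Promoter sequence is shown because the ER stress response element is the best-known cis element of these genes, bound by ATF6 and XBP1 together with NF-Y. RefSeq promoter windows (250 bases before to 50 after the start, GRCm38.p6) were matched for 31 of 38 members; Atf6, Hyou1, Manf, Sec61a1, Ssr2, Spcs3 and Lman1 were not matched. Both strands were searched for ERSE (CCAAT, any 9 bases, CCACG), ERSE-II (ATTGG, any 1 base, CCACG), the UPRE core (TGACGTGG) and the cyclic AMP response element CRE (TGACGTCA), the last because CBP is named for the CRE-binding protein it binds. ERSE was in the windows of 8 members, or 25.8% of the 31, and in 37 of 27025 windows of all genes (0.137%). ERSE-II was in 2 members' windows and in 12 of all windows (0.0444%). No member's window held the UPRE core or the CRE, which were in 0.714% and 2.03% of all windows. No member held both ERSE and ERSE-II. A match describes these letters only. The 2 windows printed whole are those of the element-bearing members with a called difference, Herpud1 (chr8:94386179-94386478, plus strand) and Creld2 (chr15:88819396-88819695, plus strand); around the elements of the other members 12 bases are given on each side, at chr2:34772013-34772055 (Hspa5, plus), chr10:86705521-86705563 (Hsp90b1, minus, the nearer to the start of 2), chr14:118937815-118937857 (Dnajc3, plus), chr16:22857840-22857874 (Dnajb11, plus), chr8:84847063-84847105 (Calr, minus), chr11:50325788-50325830 (Canx, minus), chr12:17266479-17266521 (Pdia6, plus) and chr19:6046520-6046562 (Syvn1, plus). All are written 5′ to 3′ on the gene's strand, with ERSE or ERSE-II in capitals:
Herpud1: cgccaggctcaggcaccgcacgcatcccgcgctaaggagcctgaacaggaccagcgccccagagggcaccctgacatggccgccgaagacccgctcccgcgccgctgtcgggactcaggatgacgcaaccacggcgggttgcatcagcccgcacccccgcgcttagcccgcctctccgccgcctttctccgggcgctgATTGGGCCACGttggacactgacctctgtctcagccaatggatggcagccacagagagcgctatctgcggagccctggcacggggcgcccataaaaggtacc
Creld2: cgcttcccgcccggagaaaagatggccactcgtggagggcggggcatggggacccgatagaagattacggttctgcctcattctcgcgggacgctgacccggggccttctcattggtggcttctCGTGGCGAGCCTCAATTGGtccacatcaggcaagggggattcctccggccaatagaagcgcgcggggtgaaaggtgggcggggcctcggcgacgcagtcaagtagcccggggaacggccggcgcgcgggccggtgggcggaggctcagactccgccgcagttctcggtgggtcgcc
Hspa5: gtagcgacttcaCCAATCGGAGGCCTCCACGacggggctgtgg
Hsp90b1: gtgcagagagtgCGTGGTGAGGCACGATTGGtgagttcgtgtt
Dnajc3: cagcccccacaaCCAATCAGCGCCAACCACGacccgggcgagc
Dnajb11: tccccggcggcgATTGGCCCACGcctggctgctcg
Calr: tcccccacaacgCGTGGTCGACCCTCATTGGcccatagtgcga
Canx: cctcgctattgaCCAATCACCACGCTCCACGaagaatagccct
Pdia6: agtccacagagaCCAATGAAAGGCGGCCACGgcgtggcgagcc
Syvn1: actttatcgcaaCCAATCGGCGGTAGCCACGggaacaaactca

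The elements of Creld2, Hsp90b1 (the one printed) and Calr read on the opposite strand, so their capitals show the reverse complement. The 10 members that carry an element had a median difference from controls of 0.27 in p300-deleted cells, 9 of them positive and 1 called (Creld2), and of 0.06 in CBP-deleted cells, 7 of them positive and none called. The 21 members with a window and neither element had medians of 0.20 (4 called) and 0.15 (3 called). Between CBP-deleted and p300-deleted cells the element carriers had a median of -0.31, 9 of 10 negative and 1 called (Herpud1), and the 21 others a median of -0.00, 11 negative and 1 called (Xbp1). These medians are descriptions, and the difference between the sets was not tested.

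Among the sensors and transcription factors, Xbp1 was the only member of 4 past the test. It read 10.51, 10.42 and 10.42 on the CBP-deleted arrays and 11.42, 10.92 and 11.31 on the p300-deleted arrays, against 10.55, 10.40 and 10.52 on the control arrays. Every p300-deleted array lay above all 6 others, while CBP-deleted and control arrays overlapped. Xbp1 was 0.73 ± 0.11 (SE) higher in p300-deleted cells than in controls, a fold of 1.66 (adjusted p = 0.00819), and 0.76 ± 0.11 lower in CBP-deleted than in p300-deleted cells (difference -0.76, adjusted p = 0.00315). In CBP-deleted cells it differed from controls by -0.04 ± 0.11 (adjusted p = 0.891). All 4 of its probe sets were higher in p300-deleted cells than in controls, by 0.68 to 0.85. Both calls passed under each of the 19 alternative settings, 9 of which leave out 1 array.

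Atf6, Ern1 and Ddit3 had no difference past the test. Atf6, a membrane-bound transcription factor released by cleavage, read 6.70, 6.69 and 6.65 in CBP-deleted cells and 7.02, 6.47 and 6.86 in p300-deleted cells, against 6.82, 6.45 and 6.67 in controls, and all groups overlapped. Ern1, the kinase and nuclease IRE1, read 5.29, 5.22 and 5.81 in CBP-deleted cells and 5.40, 4.92 and 5.22 in p300-deleted cells, against 5.29, 5.17 and 5.20 in controls. CBP-deleted replicate 3 was the highest, and the groups overlapped; its level does not show how much Xbp1 mRNA was spliced, which these values do not resolve. Ddit3, which encodes the stress-induced factor CHOP, read 7.69, 7.72 and 7.70 in CBP-deleted cells and 8.06, 7.94 and 7.96 in p300-deleted cells, against 8.004, 8.11 and 7.70 in controls. The CBP-deleted arrays lay below the p300-deleted ones (difference -0.28, adjusted p = 0.19), and both overlapped the controls.

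**Figure D2:**
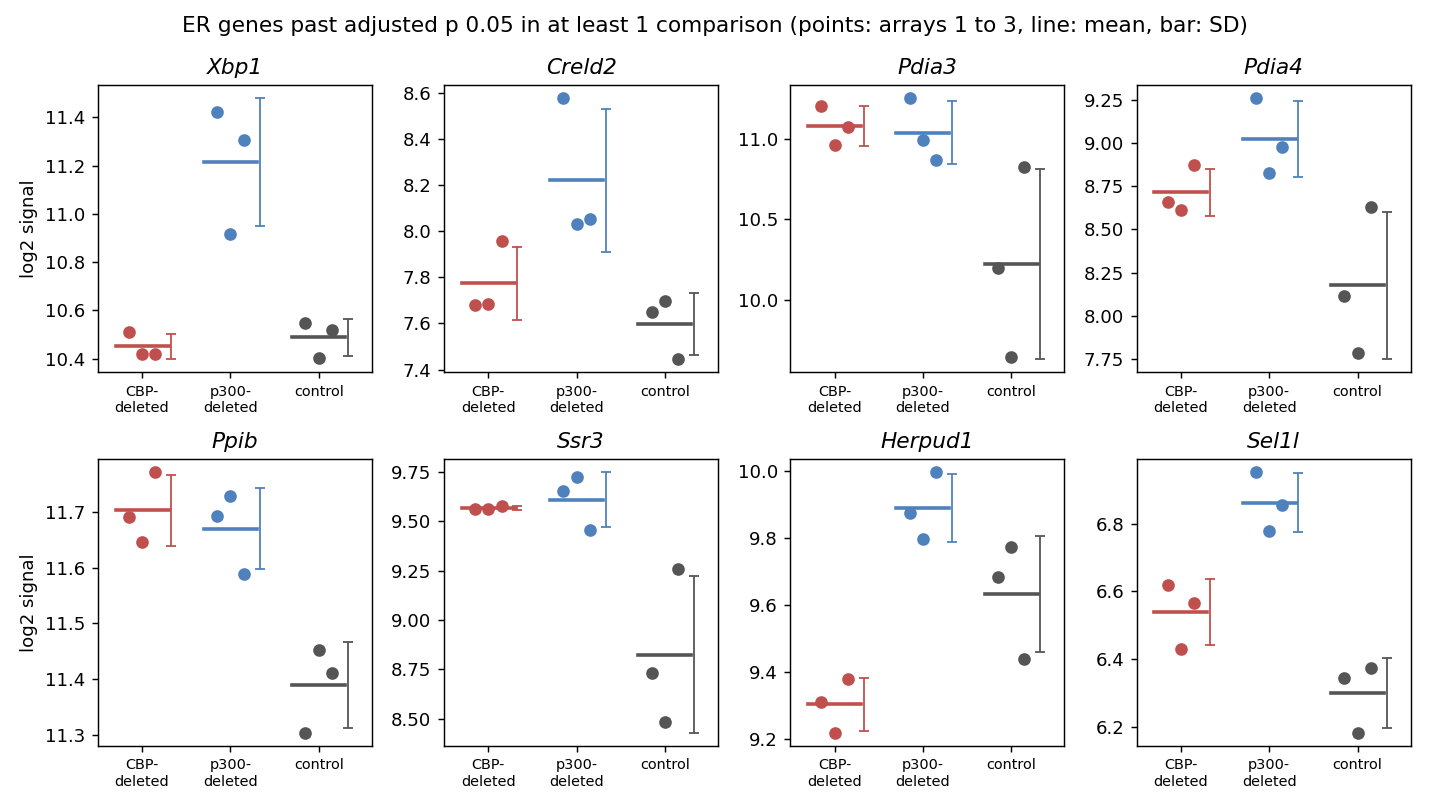
Log2 intensity of each member past the test in at least 1 comparison, 1 panel per gene, with points for the arrays of CBP-deleted, p300-deleted and control cells from left to right a line for each group mean and a bar for its SD (n = 3). Xbp1 separates p300-deleted arrays from the rest, and in Pdia3, Pdia4 and Ssr3 control replicate 3 is the highest control and the closest to the deleted arrays.

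Of the 9 chaperones and co-chaperones, all were positive in p300-deleted cells against controls on the probe sets used (median 0.27), and Creld2 alone rose. The second probe set of Hsp90b1 was negative there (-0.11). Creld2, an ER-resident protein induced by ER stress, read 7.68, 7.68 and 7.96 in CBP-deleted cells and 8.58, 8.03 and 8.05 in p300-deleted cells, against 7.65, 7.70 and 7.45 in controls. All p300-deleted arrays lay above the others, with replicate 1 the highest. The difference from controls was 0.62 ± 0.15 (SE), a fold of 1.54 (adjusted p = 0.0405), and in CBP-deleted cells 0.18 ± 0.15 (adjusted p = 0.555). The call was near the threshold: it was lost in 7 of 9 fits that left out 1 array (0.44 and adjusted p = 0.11 without p300-deleted replicate 1) and under 5 of 10 other settings. Its window, printed above, holds an ERSE at positions -126 to -108 from the start.

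Hspa5, which encodes BiP, the major ER Hsp70 chaperone, read 12.02, 11.87 and 11.91 in CBP-deleted cells and 12.37, 12.28 and 12.04 in p300-deleted cells, against 11.90, 11.59 and 12.07 in controls. p300-deleted replicates 1 and 2 were the highest of the 9, but replicate 3 lay below control replicate 3. The difference of 0.37 ± 0.12 did not pass (adjusted p = 0.104). Manf, a secreted ER stress-induced protein, had a difference of 0.35 in p300-deleted cells with no overlap of arrays, just outside the threshold (adjusted p = 0.0564). Dnajb9, a BiP co-chaperone that restrains IRE1, read 9.003, 8.91 and 8.83 in CBP-deleted cells and 9.96, 9.73 and 8.85 in p300-deleted cells, against 9.28, 9.21 and 9.31 in controls. p300-deleted replicate 3 read with the CBP-deleted arrays, apart from its own group. With it, neither the difference of 0.24 from controls (adjusted p = 0.606) nor that of -0.59 between CBP-deleted and p300-deleted cells (adjusted p = 0.147) passed. Without it they were 0.58 and -0.93. That array was singled out after its value was seen, so these sizes are descriptions and no test is drawn from them.

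The other 5 chaperones did not pass either. In p300-deleted cells Hsp90b1 (GRP94) differed from controls by 0.23, Dnajc3 (p58IPK, a BiP co-chaperone) by 0.27, Dnajb11 (ERdj3, another) by 0.25, Sdf2l1 by 0.30 and Hyou1 (GRP170, a BiP exchange factor) by 0.11. In CBP-deleted cells the differences were 0.05, -0.05, 0.25, 0.44 and 0.27 in the same order. The CBP-deleted arrays of Sdf2l1, Dnajb11, Hyou1 and Manf all lay above the controls without overlap.

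Of the 7 lectin chaperones and folding enzymes, 2 rose in CBP-deleted cells (Pdia3 and Ppib, median of the group 0.21) and 1 in p300-deleted cells (Pdia4, median 0.38). Pdia3, the disulfide isomerase that works with calnexin and calreticulin and in MHC class I loading, read 11.20, 10.96 and 11.07 in CBP-deleted cells and 11.25, 10.99 and 10.87 in p300-deleted cells, against 10.20, 9.65 and 10.82 in controls. Every deleted array lay above every control array, but control replicate 3 was close to them and control replicate 2 was the lowest of the 9. The differences were 0.85 ± 0.22 in CBP-deleted cells (fold 1.81, adjusted p = 0.0485) and 0.81 ± 0.22 in p300-deleted cells (fold 1.76, adjusted p = 0.0635). The call in CBP-deleted cells was lost under 14 of 19 alternatives, and its size moved from 0.57 without control replicate 2 to 1.15 without control replicate 3.

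Pdia4, a disulfide isomerase also known as ERp72, read 8.66, 8.61 and 8.87 in CBP-deleted cells and 9.26, 8.83 and 8.98 in p300-deleted cells, against 8.12, 7.78 and 8.63 in controls. The p300-deleted arrays lay above all controls, while the CBP-deleted arrays overlapped control replicate 3. The difference was 0.85 ± 0.18 in p300-deleted cells (fold 1.80, adjusted p = 0.0285) and 0.54 ± 0.18 in CBP-deleted cells (adjusted p = 0.119). Leaving out any 1 of the 3 p300-deleted arrays, CBP-deleted replicate 2 or control replicate 1 ended the call in p300-deleted cells, with an adjusted p of at most 0.099. Fitting only the 2 groups ended it too, and so did averaging its 2 probe sets, the dimmer of which lay within the range of the bacterial probe sets (0.39, adjusted p = 0.137). Without control replicate 3 the difference in CBP-deleted cells passed too, at 0.76 (adjusted p = 0.00869).

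Ppib, cyclophilin B, a prolyl isomerase of the ER, read 11.69, 11.65 and 11.77 in CBP-deleted cells and 11.69, 11.73 and 11.59 in p300-deleted cells, against 11.30, 11.45 and 11.41 in controls. All 6 deleted arrays lay above the 3 controls. The differences were 0.31 ± 0.07 in CBP-deleted cells (fold 1.24, adjusted p = 0.0317) and 0.28 ± 0.07 in p300-deleted cells (fold 1.21, adjusted p = 0.0509). Its second probe set differed by only 0.06 and 0.02. The call was lost under 9 of 19 alternatives, among them the mean of both probe sets (0.19, adjusted p = 0.206) and the fits without CBP-deleted replicate 1, 2 or 3 or control replicate 1.

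No other member of this group passed. Calr (calreticulin) differed from controls by 0.38 with p300 deleted and 0.21 with CBP deleted, and Pdia6 by 0.44 and 0.04, with adjusted p of 0.0832 and 0.0769 in p300-deleted cells. Canx (calnexin), the membrane-bound partner of calreticulin, differed by -0.12 and 0.08. Fkbp2, an ER prolyl isomerase, differed by -0.02 and -0.32.

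Of the 6 translocon genes on the array, Ssr3 rose in both deleted groups and no other passed. The medians were -0.06 with p300 deleted and 0.15 with CBP deleted. Ssr3, a subunit of the TRAP complex beside the Sec61 channel, read 9.56, 9.56 and 9.58 in CBP-deleted cells and 9.65, 9.73 and 9.45 in p300-deleted cells, against 8.73, 8.48 and 9.26 in controls. The 6 deleted arrays lay above the controls, and control replicate 3 again lay closest to them. The differences were 0.74 ± 0.16 in CBP-deleted cells (fold 1.67, adjusted p = 0.024) and 0.79 ± 0.16 in p300-deleted cells (fold 1.72, adjusted p = 0.0212). The call in CBP-deleted cells was lost without CBP-deleted replicate 1, 2 or 3 or control replicate 1, that in p300-deleted cells without p300-deleted replicate 1 or 2 or control replicate 1, and both when only the 2 groups compared were fitted.

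The other TRAP subunits differed less. In p300-deleted cells Ssr1 differed from controls by -0.26, Ssr2 by -0.12 and Ssr4 by 0.17, and in CBP-deleted cells by 0.02, 0.25 and 0.13. The channel subunits Sec61a1 and Sec61b differed by -0.14 and 0.01 in p300-deleted cells and by -0.06 and 0.17 in CBP-deleted cells. Sec61a1 and Ssr1 were the 2 members whose p300-deleted arrays all lay below the controls. For Ssr1 this rests on the probe set used: its second one was 0.42 higher in p300-deleted cells and 0.71 higher in CBP-deleted cells than in controls, and with that probe set, the most variable of the gene, the difference in CBP-deleted cells passed (adjusted p = 0.045). That probe set read 7.23, 7.07 and 7.83 on the control arrays, with control replicate 3 within the range of the p300-deleted arrays.

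The enzymes that act on the entering chain stayed within a narrow range, and none passed in any comparison. The signal peptidase subunits Spcs1, Spcs2 and Spcs3 differed from controls by 0.20, 0.02 and 0.05 in p300-deleted cells and by 0.27, 0.02 and 0.21 in CBP-deleted cells. The oligosaccharyltransferase subunits Ddost, Rpn1 and Rpn2, which are part of the complex that attaches N-linked sugars, differed by -0.06, 0.05 and -0.05 in p300-deleted cells and by 0.06, 0.17 and 0.03 in CBP-deleted cells. Lman1, the cargo receptor ERGIC-53, differed by 0.23 in p300-deleted and 0.17 in CBP-deleted cells. Its dimmer probe sets differed by 0.01, 0.42 and 0.04 in p300-deleted cells and by -0.09, 0.57 and 0.22 in CBP-deleted cells.

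The 3 control arrays did not agree for Pdia3, Pdia4 and Ssr3, and measures of the arrays also differed among them. The mean of the 18S ribosomal RNA probe sets was 7.39, 7.999 and 7.85 on the CBP-deleted arrays and 7.88, 9.62 and 8.07 on the p300-deleted arrays, against 5.82, 6.198 and 8.88 on the control arrays. The 3′ minus 5′ difference of the Gapdh probe sets was -0.15, 0.00 and 0.11 and 0.11, 0.17 and 0.06 on the same deleted arrays, against 0.25, 0.60 and 0.20 on the controls. Control replicates 1 and 2, low for these 3 genes, had the lowest 18S values of the 9 arrays, and control replicate 2 the largest Gapdh difference. The Gapdh difference was larger on every control array than on any of the 6 deleted arrays, so it moved with each comparison against controls. The part of these measures in the 3 results and in the other differences from controls was not tested.

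All 5 genes of ER-associated degradation, which hands misfolded proteins to the proteasome, were positive in p300-deleted cells against controls (median 0.32, 1 called), and all 5 were lower in sign in CBP-deleted than in p300-deleted cells (median -0.32, 1 called). In CBP-deleted cells against controls the median was 0.09, and none was called. Sel1l, the scaffold of the ubiquitin ligase HRD1, read 6.62, 6.43 and 6.57 in CBP-deleted cells and 6.95, 6.78 and 6.86 in p300-deleted cells, against 6.35, 6.18 and 6.37 in controls. No groups overlapped: the p300-deleted arrays were highest and the controls lowest. The differences from controls were 0.56 ± 0.11 in p300-deleted cells (fold 1.48, adjusted p = 0.0177) and 0.24 ± 0.11 in CBP-deleted cells (adjusted p = 0.238). The call was lost without p300-deleted replicate 1 or 2 and when only the 2 groups were fitted (adjusted p of at most 0.0623). All 4 of its probe sets were higher in p300-deleted cells.

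Herpud1, a stress-induced membrane protein of the HRD1 complex, read 9.31, 9.22 and 9.38 in CBP-deleted cells and 9.87, 9.80 and 9.999 in p300-deleted cells, against 9.68, 9.77 and 9.44 in controls. The 3 groups did not overlap, with controls between the 2 deleted groups. Herpud1 was lower in CBP-deleted than in p300-deleted cells by 0.59 ± 0.10 (difference -0.59, fold 0.67, adjusted p = 0.00608), which passed under all 19 alternatives. Against controls, neither the -0.33 of CBP-deleted cells (adjusted p = 0.0834) nor the 0.26 of p300-deleted cells (adjusted p = 0.181) passed. Its second probe set gave -0.53 between CBP-deleted and p300-deleted cells, and its window, printed above, holds an ERSE-II at positions -52 to -42.

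Syvn1, the ligase HRD1 itself, differed by -0.33 between CBP-deleted and p300-deleted cells (adjusted p = 0.125), and from controls by -0.25 where CBP was deleted and 0.08 where p300 was. Edem1 and Edem2, mannosidase-like proteins that mark misfolded glycoproteins, differed from controls by 0.35 and 0.32 in p300-deleted cells, against 0.09 and 0.15 in CBP-deleted cells. The p300-deleted arrays of Edem1 and Edem2 all lay above the controls, with adjusted p of 0.0723 and 0.104. For Edem1 this rests on the probe set used. Its second one, with mean 8.64, differed from controls by 0.02 in p300-deleted cells and -0.22 in CBP-deleted cells.

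**Figure D3:**
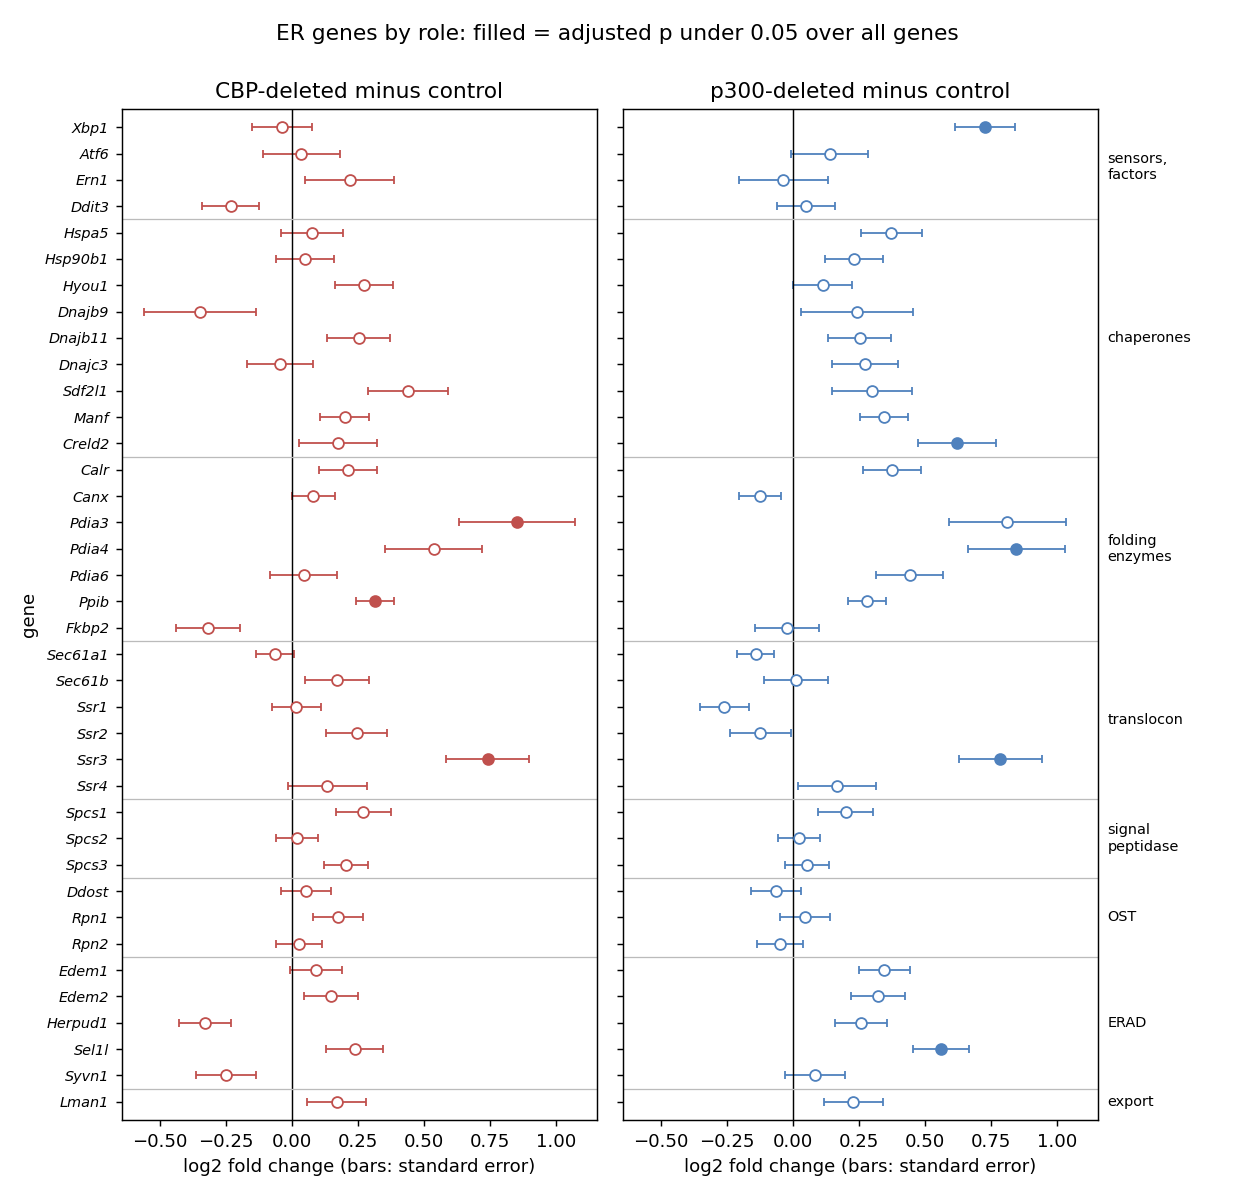
Log2 difference of the 38 ER genes, grouped by role, in CBP-deleted minus control cells (left) and p300-deleted minus control cells (right), with bars for the standard error. Filled points passed an adjusted p of 0.05, 3 genes on the left and 5 on the right; both panels use the same control arrays.

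A wider list of 135 further genes of the same pathways on the array gave 7 that rose and 1 that fell in p300-deleted cells (5.93% called, against 4.06% of all genes, median 0.04), and 4 that rose and 2 that fell in CBP-deleted cells (4.44%, against 4.93% of all genes, median 0.03). The share in CBP-deleted cells was no higher than that of all genes. Txndc5, a thioredoxin-like isomerase of the ER also known as ERp46, read 8.49, 8.50 and 8.67 in CBP-deleted cells and 9.90, 9.19 and 9.47 in p300-deleted cells, against 8.21, 7.83 and 8.597 in controls. Derl3, a membrane component of ER-associated degradation, read 6.23, 6.33 and 6.48 in CBP-deleted cells and 8.17, 7.23 and 7.39 in p300-deleted cells, against 6.37, 6.47 and 6.19 in controls. In both, all p300-deleted arrays lay above the 6 others, with replicate 1 the highest. They were 1.31 ± 0.19 and 1.26 ± 0.20 higher in p300-deleted cells than in controls (adjusted p = 0.00741 and 0.00918), more than any of the 38 members, and both calls passed under all 19 alternatives.

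The wider list also gave higher values in p300-deleted cells for Erp44 (0.76), a thiol-retention chaperone, the glycosylation enzyme Alg5 (0.53), the Lman1 partner Mcfd2 (0.51), the membrane-bound transcription factor Creb3l2 (0.47) and Chac1 (0.47), an ATF4 target whose level lay within the range of the bacterial probe sets on all 9 arrays. Phgdh, an enzyme of serine synthesis, fell by 0.41. In CBP-deleted cells Psat1 (0.74), the next enzyme of that pathway, Erp44 (0.56), the translocation factor Sec63 (0.52) and the oligosaccharyltransferase subunit Ostc (0.49) rose, while the transcription factor Cebpb fell by 0.81 and the IRE1 adaptor Traf2 by 0.59. All 6 calls in CBP-deleted cells were lost without any 1 of the 3 CBP-deleted arrays and without control replicate 1, and those of Erp44, Sec63 and Traf2 also without p300-deleted replicate 2. In p300-deleted cells Erp44, Mcfd2, Creb3l2 and Alg5 were lost without control replicate 1 or p300-deleted replicate 2, and Phgdh and Mcfd2 without p300-deleted replicate 1. Creb3l2 was also lost without CBP-deleted replicate 2 or p300-deleted replicate 3, Phgdh without p300-deleted replicate 2, and Alg5 and Chac1 in 8 of the 9 fits that left out 1 array.

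In the direct comparison 2 of the 135 genes were higher in CBP-deleted than in p300-deleted cells, Psat1 by 0.95 and Phgdh by 0.50 (3.70% called in either direction, against 5.20% of all genes). The 3 that were lower were Derl3 (-1.25), Txndc5 (-0.97) and Creb3l2 (-0.51). Psat1, Phgdh and Derl3 passed without each array in turn, while Txndc5 was lost without CBP-deleted replicate 1 or 2 or p300-deleted replicate 1, and Creb3l2 without CBP-deleted replicate 1 or 2 or p300-deleted replicate 2 or 3. The PERK and ATF4 arm, with 17 genes on the array, had no common direction in p300-deleted cells, with 8 positive and 9 negative against controls. Its transcription factor Atf4 differed from controls by -0.20 with CBP deleted and by 0.19 with p300 deleted, and neither passed. Ppp1r15a (GADD34), which ends the PERK signal, averaged 10.14 ± 0.30 in CBP-deleted cells and 10.83 ± 0.41 in p300-deleted cells, against 10.85 ± 0.14 in controls (SD, n = 3 each), just outside the threshold for CBP-deleted cells (-0.71, adjusted p = 0.0524).

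Markers of plasma cells moved with the p300-deleted group. Of 13 such markers on the array, 8 rose and none fell in p300-deleted cells against controls (median 1.03), 1 rose in CBP-deleted cells (Igha, 1.15, lost without CBP-deleted replicate 2 or 3; median 0.11), and 7 were lower in CBP-deleted than in p300-deleted cells (median -1.10). Among all genes, 2.02% rose in p300-deleted cells, 2.14% rose in CBP-deleted cells and 2.01% were lower in CBP-deleted than in p300-deleted cells. Derl3 and Fkbp11 belong to both the plasma cell list and the wider ER list. Jchain, the chain that joins secreted antibody, read 11.56, 11.70 and 12.15 in CBP-deleted cells and 13.04, 12.93 and 12.74 in p300-deleted cells, against 11.56, 12.12 and 11.94 in controls. Tnfrsf17, the plasma cell survival receptor BCMA, read 4.50, 4.83 and 5.10 in CBP-deleted cells and 6.17, 5.57 and 6.05 in p300-deleted cells, against 4.05, 4.50 and 3.87 in controls. For both, the p300-deleted arrays lay above all others, and control replicates 1 and 3 of Tnfrsf17 lay within the range of the bacterial probe sets.

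The immunoglobulin alpha constant gene Igha was 2.09 and Iglv1 1.47 higher in p300-deleted cells than in controls, and the surface marker Sdc1 (CD138) 0.80 and Eaf2 1.23. The calls of Jchain, Tnfrsf17, Igha and Derl3 passed under all 19 alternatives for p300-deleted cells against controls. That of Iglv1 was lost without p300-deleted replicate 2, with the mean of its probe sets and without probe sets of the types shared between transcripts (adjusted p up to 0.822). That of Eaf2 was lost in 6 and that of Sdc1 in 8 of the 9 fits that left out 1 array, and that of Sdc1 also under 5 of 10 other settings. The plasma cell transcription factors Prdm1 and Irf4, which activated Treg cells also express, differed by -0.08 and 0.16 and did not pass. On the log2 scale the summed level of the 13 markers was 13.50 to 14.12 in CBP-deleted cells and 14.74 to 15.11 in p300-deleted cells, against 13.14 to 13.52 in controls. The mean deviation per array was -0.62, -0.51 and 0.08 in CBP-deleted cells and 1.08, 0.64 and 0.40 in p300-deleted cells, against -0.51, -0.24 and -0.34 in controls. The p300-deleted replicate 1 was highest for these markers as it was for most ER genes, and CBP-deleted replicate 3 was the highest of its group for both. Other arrays did not rank alike. The markers stood at 0.64 and 0.40 on p300-deleted replicates 2 and 3, the ER genes at 0.04 and 0.05. Xbp1, Creld2, Pdia4, Sel1l, Txndc5 and Derl3 read higher on replicate 3 than on replicate 2, and Ssr3 lower. On CBP-deleted replicate 3 the markers (0.08) lay above every control array, while Xbp1 (10.42) was not the highest of its group. The markers' part in the higher Xbp1, Creld2, Pdia4, Sel1l, Ssr3, Txndc5 and Derl3 was not tested.

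**Figure D4:**
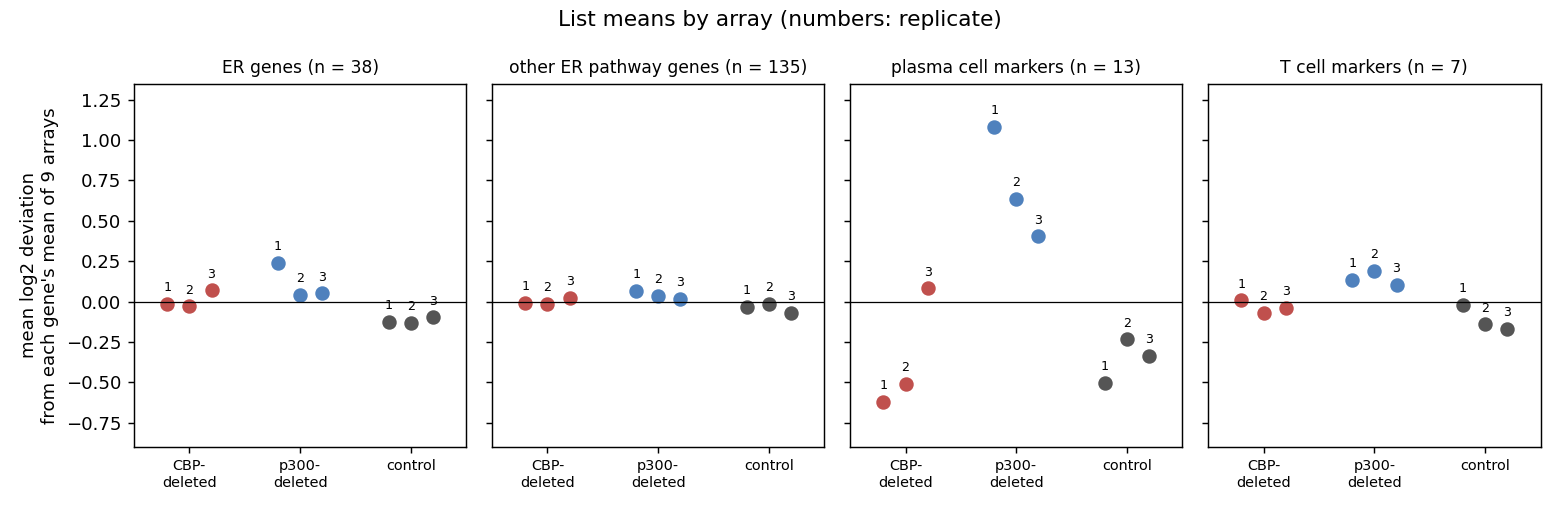
Mean log2 deviation from each gene's mean over the 9 arrays, for the 38 ER genes, 135 other ER pathway genes, 13 plasma cell markers and 7 T cell markers, with 1 numbered point per array of CBP-deleted, p300-deleted and control cells from left to right. The p300-deleted arrays are highest for the plasma cell markers, at 1.08, 0.64 and 0.40.

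Markers of other cells differed too. In p300-deleted cells against controls 6 of 9 mast cell and basophil markers, 2 of 18 neutrophil and monocyte markers and 1 of 11 B cell markers rose. Of 12 CD8 T and NK cell markers 1 rose, of 11 dendritic cell markers none, and of 7 T cell markers 3 (Cd3g, Cd2 and Cd4). Of the 11 B cell markers 8 were negative there, with a median of -0.19. Among all genes, 2.02% rose in p300-deleted cells, and 2.14% rose and 2.79% fell in CBP-deleted cells. In CBP-deleted cells none of the mast cell, dendritic cell, or neutrophil and monocyte markers rose and 1 of the last fell, 4 of 11 B cell markers fell, 2 of 12 CD8 T and NK cell markers rose, and 1 T cell marker rose and 1 fell. Although few passed, 17 of 18 neutrophil and monocyte markers were positive in each deleted group, with medians of 0.71 in CBP-deleted cells and 1.29 in p300-deleted cells against controls. Their mean deviation per array was -0.40, -0.30 and 1.08 in CBP-deleted cells and 1.45, -0.11 and 0.30 in p300-deleted cells, against -0.69, -0.99 and -0.34 in controls. CBP-deleted replicate 3 and p300-deleted replicate 1, the highest of their groups for the ER genes, stood apart here as well. Cd3e, a subunit of the T cell receptor complex, averaged 11.44 ± 0.05 in CBP-deleted cells and 11.65 ± 0.08 in p300-deleted cells, against 11.48 ± 0.14 in controls (SD, n = 3 each). The part of these markers in the results on ER genes was not tested.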

How the data were processed

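The deposited table holds log2 intensities of 22690 probe sets on 9 arrays, made by the authors with RMA, per the submitters' processing notes (version not given). RMA corrects background, normalizes between arrays and summarises probes, so that differences in total RNA are removed. Per the labels, 100 ng of total RNA was amplified per array. From the deposited log2 values, 64 control probe sets, 1555 without a gene symbol and 691 with several were left out, and 20380 with 1 symbol gave 12393 genes, each read from its brightest probe set. Group means were compared with limma 3.58.1 (R 4.3.3) on all 9 arrays with an intensity trend and 6 residual degrees of freedom, and p-values were adjusted by the Benjamini-Hochberg method over all genes at 0.05. The number of arrays limits the precision: an exact permutation test of 3 against 3 cannot go below 0.1, so none is used. On simulated data the fit called 47.2% to 50.8% of log2 changes of 0.5 and 98.4% to 100% of changes of 1 or 2. A difference that did not pass can therefore be real. The simulated noise was normal and independent between arrays, so the simulation says nothing on array quality or differences in cells.

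The members and all gene lists were chosen with earlier results of these data known. Members past the threshold, the 4 sensors and transcription factors, Hspa5 and Dnajb9 are given per array. Of these, Dnajb9 was not among the genes planned to be given so. Of the wider list, the genes named are up to 6 per comparison with the largest called difference, which over the 3 comparisons takes in every called gene, with Atf4 and Ppp1r15a chosen after their values were seen. The alternatives tried were a fit of 2 groups only, a replicate block, no trend, 2 scalings, leaving out dim genes, other probe set rules, array weights and each array left out. 1 gene is not reported here.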

Additional observations from a re-analysis of the deposited data

Results flagged for a closer look

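The effects of the 2 deletions, each against the same control arrays, differed for 2 ER genes by a test of the difference itself (CBP-deleted minus p300-deleted, limma, adjusted over all genes). That is 5.26% of the 38, near the 5.20% of all genes. Xbp1 differed by -0.76 ± 0.11 (SE, adjusted p = 0.00315), with differences from controls of -0.04 with CBP deleted and 0.73 with p300 deleted. Herpud1 differed by -0.59 ± 0.10 (adjusted p = 0.00608), with differences from controls of -0.33 with CBP deleted and 0.26 with p300 deleted. In both genes every CBP-deleted array lay below every p300-deleted array. No formal test for single outlying arrays was made within the groups of 3.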

How the results depend on the processing

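No called ER gene changed direction under the 19 alternatives. Of all genes, 611 were called in CBP-deleted cells against controls, 503 in p300-deleted cells against controls and 645 between CBP-deleted and p300-deleted cells. Fitting only the 2 groups gave 261, 165 and 1386, and array weights gave 1755, 1028 and 1467. Leaving out 1 array gave 85 to 1131, 65 to 854 and 212 to 1041. Of the 38 ER genes (3, 5 and 2 called), fitting only the 2 groups called 0, 1 and 7 and array weights 9, 11 and 10. Averaging probe sets called 1 with CBP deleted and 3 with p300 deleted, against controls, and no trend called 1 in CBP-deleted cells. Leaving out 1 array gave 0 to 8, 1 to 8 and 2 to 4. The median difference of the ER genes ran from 0.08 to 0.16 in CBP-deleted cells, from 0.14 to 0.23 in p300-deleted cells and from -0.12 to 0.00 between the 2 deleted groups when 1 array was left out. Arrays with the same replicate number did not pair (their deviations correlated at -0.23 to 0.27 over 9 pairs), and with the replicate number as a block 364, 326 and 524 genes were called, among them 1, 4 and 2 ER genes. The cause of these changes was not tested. Fits of 2 groups or of 8 arrays rest on fewer samples, and some of them called fewer genes while others called more. Every ER gene stayed in when the dimmest 25% of genes were left out (9294 genes).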

Other observations

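Some ER genes have further, dimmer probe sets that read differently from those used, and they are given here as values with no test. The second probe set of Hyou1 was 0.67 higher in CBP-deleted and 0.59 higher in p300-deleted cells than in controls, where the probe set used differed by 0.27 and 0.11. It read 6.29, 6.28 and 7.17 on the control arrays, so control replicate 3 lay within the range of the deleted arrays. Control replicates 1 and 2 were low here as they were for Pdia3, Pdia4 and Ssr3. For Sel1l a probe set with mean 4.97 over the 9 arrays was 1.23 higher in p300-deleted cells than in controls, against 0.56 for the one used. A second probe set of Canx was 0.52 higher in CBP-deleted cells and 0.31 higher in p300-deleted cells than in controls, against 0.08 and -0.12. The second probe set of Hsp90b1 was lower by 0.42 in CBP-deleted cells (difference -0.42), against 0.05 for the one used.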
